A study of Homo sapiens with 6 samples.

Results

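The genes described here encode 10 amino acid transporters or transporter subunits of the plasma membrane: SLC7A1, SLC7A5, SLC7A6, SLC3A2, SLC1A4, SLC1A5, SLC38A1, SLC38A2, SLC6A9 and SLC43A1. They were chosen by name, with earlier results of these data known, and found by Ensembl identifier. All 10 were present among the 39168 identifiers of the count table. Shares of all genes given beside counts of these genes are therefore descriptive. Their transcripts were measured by RNA sequencing in CAL62 cells, an established anaplastic thyroid carcinoma line labelled as wild type. One group of 3 libraries came from cells given 50 nM erianin, a bibenzyl compound from Dendrobium orchids, and the other 3 came from cells given the solvent DMSO, all for 48 h. Both groups are 1 cell line at 1 dose and 1 time, so the values describe these cultures only.

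Amino acids cross the plasma membrane through carriers with overlapping substrates. Exchangers swap 1 amino acid for another, sodium-coupled carriers concentrate their substrates in the cell, and facilitative carriers let them run down their gradient. SLC7A5 and SLC7A6 are light chains that reach the cell surface only when bound to the heavy chain SLC3A2, and proliferating tumor cells commonly rely on the SLC7A5 pair for leucine and on SLC1A5 for glutamine. When amino acids run short, the kinase GCN2 raises translation of the transcription factor ATF4, which is known to induce many genes of amino acid import and synthesis, while mTORC1 senses amino acids at the lysosome.

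After erianin, transcripts of the neutral amino acid exchanger SLC1A4 fell by 40.6% and those of the glycine transporter SLC6A9 fell by 43.5%, both with no overlap between groups. Smaller decreases of 20.7% to 23.5% passed the test for SLC7A5, SLC7A1 and SLC43A1. No transporter gene passed the test as higher. The heavy chain SLC3A2 stood higher in all 3 erianin libraries than in any DMSO library, but its change did not pass in edgeR with all 6 libraries and no covariate, and DMSO replicate 3 was far below the other DMSO libraries. The median log2 fold change of the 10 genes was -0.28, beside 0.00 over all 12821 genes tested. By the edgeR quasi-likelihood test, 5 of the 10 genes were lower at an adjusted p under 0.05, where 7.69% of all genes tested were, and 0 were higher, where 7.22% of all genes were. At an unadjusted p under 0.05, 0 of the 10 were higher in edgeR and 1 in DESeq2 (SLC3A2), and DESeq2 with adjusted p also gave 5 lower and 0 higher. Counted as differentially expressed genes (DEGs), which also needed an absolute log2 fold change over 0.5, 2 of the 10 were lower (3.36% of all genes) and 0 were higher (5.37%). In 5 genes every erianin library was below every DMSO library (19.3% of all genes) and in 1 gene every erianin library was above (19.5%).

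The libraries held between 25776301 and 34107727 reads on named genes. DMSO replicate 3 stood apart: its distance to the other DMSO libraries over all genes was 62.9 and 64.1, against 37.2 between those libraries and 28.2 to 29.0 within the erianin group, as Euclidean distances of log2 CPM. Leaving it out lowered the biological coefficient of variation from 0.139 to 0.0421, and 27.7% and 27.5% of all genes then passed the test as lower and higher. Over all genes, 1912 passed with all 6 libraries, and 906 and 902 without DMSO replicate 1 or 2. Without erianin replicate 1, 2 or 3, 333, 318 and 310 passed. DEGs numbered 1119, then 744 and 737, then 328, 312 and 309. Counts of passing transporter or companion genes with 1 library left out are to be read beside these. Of 9 thyroid follicular cell markers, PAX8 was abundant and lower with erianin (means of 676 and 428 in normalized counts, CPM, which are reads scaled to a common library size; adjusted p 0.00404 in edgeR), and TG and SLC5A5 had at most 13 reads in any library. TSHR and NKX2-1 were listed at 0 in every library, which in this table is no measure of absence, because 18 of 20 cytosolic aminoacyl-tRNA synthetases were listed at 0 too. Of the epithelial and mesenchymal markers, the keratin KRT8 was abundant (1408 and 1418 CPM) and EPCAM was at 17.8 to 23.3 CPM, whereas CDH1 had at most 9 reads in any library; the mesenchymal FN1 (5817 and 3353 CPM, adjusted p 0.00761) and VIM (1289 and 932 CPM, adjusted p 0.0300) were abundant and fell in edgeR. Of 10 blood, vessel and stromal markers, 3 were high enough to test, 0 passed at adjusted p and 1 at an unadjusted p under 0.05 (edgeR; 0 by adjusted p in DESeq2). The summed level of the 10 was 2.63 to 3.67 CPM with DMSO and 4.44 to 5.94 CPM with erianin, with PTPRC at no more than 6 reads in any library, and the part of this in the results was not tested. Where a transcript level differs between the groups, fewer cells of a kind and less RNA per cell cannot be told apart in bulk samples.

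The RefSeq promoter table (GRCh38.p14, 250 bases before to 50 after a transcript start) held windows for all 10 genes, 17 in total. A pair of short motifs was searched on both strands. TGATGNAA is the core of the amino acid response element, a kind of site through which ATF4 is known to act, and CACGTG is the canonical E-box, bound by MYC and related factors; the E-box was added after the data had been seen. Neither motif contains the other. TGATGNAA occurred in 5 of the 17 windows, each from a different gene, against 3.62% of 35116 windows and in at least 1 window of 2.73% of the 10128 genes tested that have one. The stretches below, in lower case with the match in capitals and written 5′ to 3′ on the gene's strand, are shown because these matches group the genes by sequence rather than by their response; matches in SLC1A4 and SLC3A2 are on the opposite strand. They lie at chr2:64989381-64989410 (plus strand), chr11:62881719-62881748 (plus), chr12:46266502-46266531 (minus), chr13:29595663-29595692 (minus) and chr19:46784893-46784922 (minus).
SLC1A4: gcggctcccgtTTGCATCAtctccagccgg
SLC3A2: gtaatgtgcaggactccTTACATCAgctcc
SLC38A1: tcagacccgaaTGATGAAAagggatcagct
SLC7A1: gggcgcactgcTGATGAAAcctggcgccgg
SLC1A5: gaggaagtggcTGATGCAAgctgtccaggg

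Counting the start as base 1 and the base before it as -1, the matches began at -7 in SLC1A4, 38 in SLC3A2, -4 in SLC38A1, 8 in SLC7A1 and -97 in SLC1A5. CACGTG occurred in 3 of the 17 windows, of SLC43A1, SLC7A5 and SLC1A5, against 7.26% of all windows and 12.7% of the genes tested. These stretches lie at chr11:57515797-57515826, chr16:87869620-87869649 and chr19:46787326-46787355, all on the minus strand, and the motif began at -112, -130 and -50.
SLC43A1: cagcgggcgagtCACGTGcgcgtgaaactc
SLC7A5: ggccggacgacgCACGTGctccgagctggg
SLC1A5: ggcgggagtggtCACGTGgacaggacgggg

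The windows of SLC6A9, SLC7A6 and SLC38A2 held neither motif. Of the 5 genes with TGATGNAA, SLC1A4 and SLC7A1 were among the 5 that fell, and SLC3A2, SLC38A1 and SLC1A5 were not. A match in these letters is no measure of binding.

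Compared per length, in TPM, the 10 genes spanned a wide range. With DMSO, SLC7A5 was the highest at 304 ± 24.5 TPM (SD, n = 3), followed by SLC1A5 (242 ± 57.9), SLC7A1 (158 ± 8.83), SLC3A2 (70.5 ± 24.9), SLC38A1 (58.7 ± 9.46) and SLC38A2 (45.9 ± 6.11). SLC1A4 (27.3 ± 1.89) and SLC43A1 (23.3 ± 2.50) were lower, and SLC7A6 (4.94 ± 0.327) and SLC6A9 (4.03 ± 0.215) were lowest. The only neighbors in this order whose library values overlapped were SLC3A2 and SLC38A1. With erianin the first 6 places held the same genes, now with SLC3A2 at 112 ± 0.473 TPM clear of SLC38A1 at 62.0 ± 2.27, while SLC38A1 and SLC38A2 (59.2 ± 2.24) overlapped. SLC43A1 (20.6 ± 0.998) and SLC1A4 (18.6 ± 0.416) exchanged places. The summed level of the 10 genes was 1867 to 2029 CPM with DMSO and 1780 to 1837 CPM with erianin, without overlap, whereas the sums of TPM overlapped (845 to 1014 and 919 to 943). The sum of 845 was that of DMSO replicate 3. Its TPM column held 59.1% of the nominal total, against 72.6% to 78.3% in the other libraries. TPM levels were not rescaled to a common total, so their comparison between groups carries this difference.

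**Figure D1:**
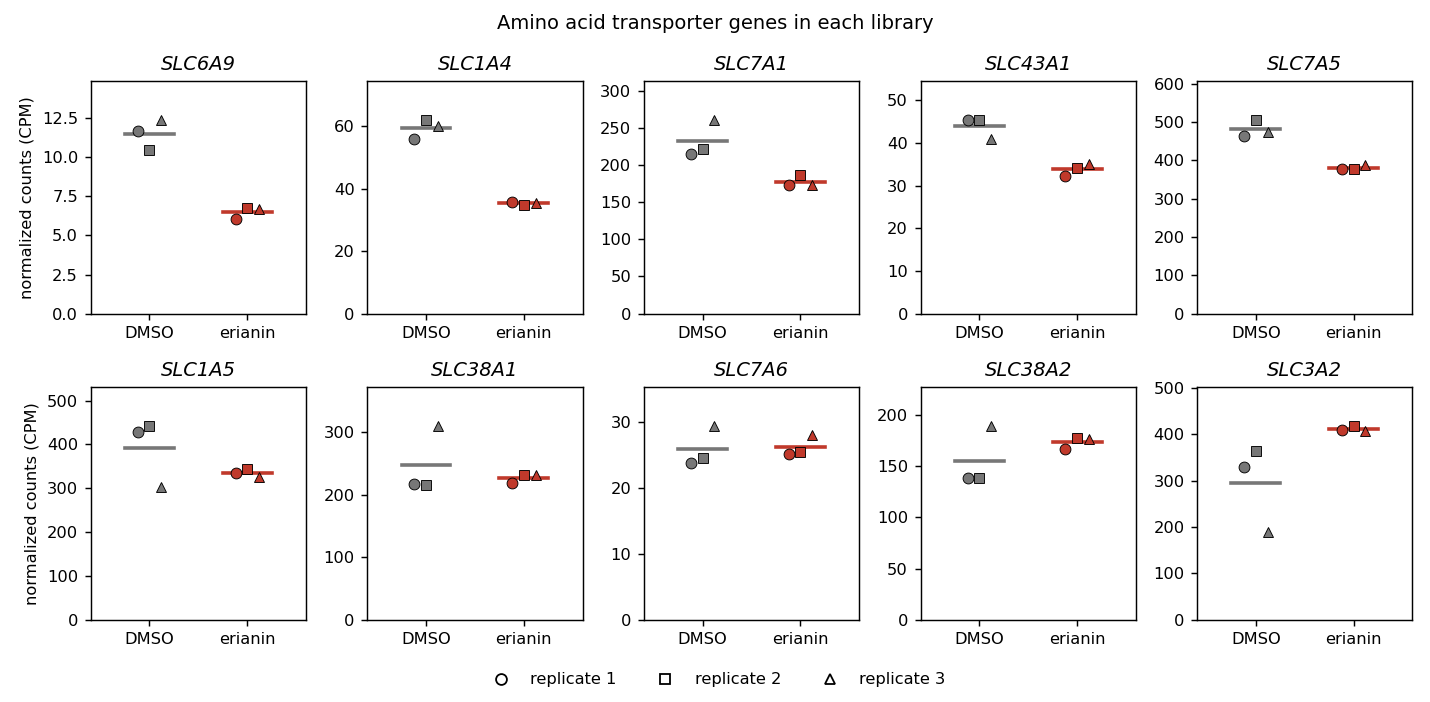
Normalized counts (CPM, vertical axis from 0) of each transporter gene in the 3 DMSO and 3 erianin libraries; symbols mark the replicate and horizontal lines the group means. SLC6A9, SLC1A4, SLC7A1, SLC43A1 and SLC7A5 are separated downward, and SLC3A2 is separated upward with DMSO replicate 3 at 189 CPM, far below the other DMSO libraries.

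SLC7A5 (ENSG00000103257, chr16:87830023-87869488, minus strand of GRCh38) is the light chain that exchanges leucine and other large neutral amino acids. It measured 462, 505 and 473 CPM in DMSO replicates 1, 2 and 3 and 378, 377 and 387 CPM in the erianin replicates. All erianin libraries lay below all DMSO libraries. The log2 fold change was -0.33 (SE 0.0673, adjusted p 0.0182, edgeR). With 1 library left out, it passed without DMSO replicate 1 or 3 and not without DMSO replicate 2 (adjusted p 0.0628) or any erianin library (0.0939 to 0.101). These fits gave log2 fold changes between -0.37 and -0.30 for SLC7A5. Its pseudogenes SLC7A5P1 and SLC7A5P2 were listed at 0 in every library. SLC7A6 (ENSG00000103064, chr16:68264516-68301823, plus strand), the light chain that exchanges cationic for neutral amino acids, measured 23.7, 24.5 and 29.4 CPM with DMSO and 25.1, 25.4 and 28.0 CPM with erianin. These groups overlapped, and the log2 fold change was 0.02 with a 95% interval from -0.25 to 0.28. SLC7A6 overlaps SLC7A6OS on the opposite strand, and whether counting used the strand is not stated; SLC7A6OS had a mean of 553 reads against 836 for SLC7A6.

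SLC3A2 (ENSG00000168003, chr11:62856102-62888875, plus strand) is the heavy chain that carries both of these light chains to the membrane. It measured 331, 364 and 189 CPM with DMSO and 410, 418 and 407 CPM with erianin. The groups did not overlap, and the DMSO replicates 1 and 2 lay nearer to the erianin libraries than to DMSO replicate 3. The log2 fold change was 0.49 (SE 0.216, adjusted p 0.175, edgeR), and without DMSO replicate 3 it was 0.24 (adjusted p 1.26e-05). With a correction for the GC content of transcripts and the replicate number as a block, it passed at 0.52 (adjusted p 0.0375).

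The TPM ratio of SLC3A2 to SLC7A5 was 0.268, 0.270 and 0.150 in the DMSO libraries and 0.407, 0.416 and 0.394 in the erianin libraries. A ratio within a library does not depend on how libraries are scaled. All erianin ratios lay above all DMSO ratios, by 1.83-fold in the means of the logarithms, and the two-sided exact permutation test gave p = 0.1, the smallest that 3 against 3 libraries allow. Leaving out each library in turn gave log2 differences between 0.59 and 1.02, the lowest without DMSO replicate 3. The log2 difference was 0.87, and with SLC7A6 added to SLC7A5 it was also 0.87. The TPM ratio of SLC7A5 to SLC7A6 was 64.4, 68.1 and 53.2 with DMSO and 49.8, 48.9 and 45.7 with erianin, without overlap (exact permutation p = 0.1).

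**Figure D2:**
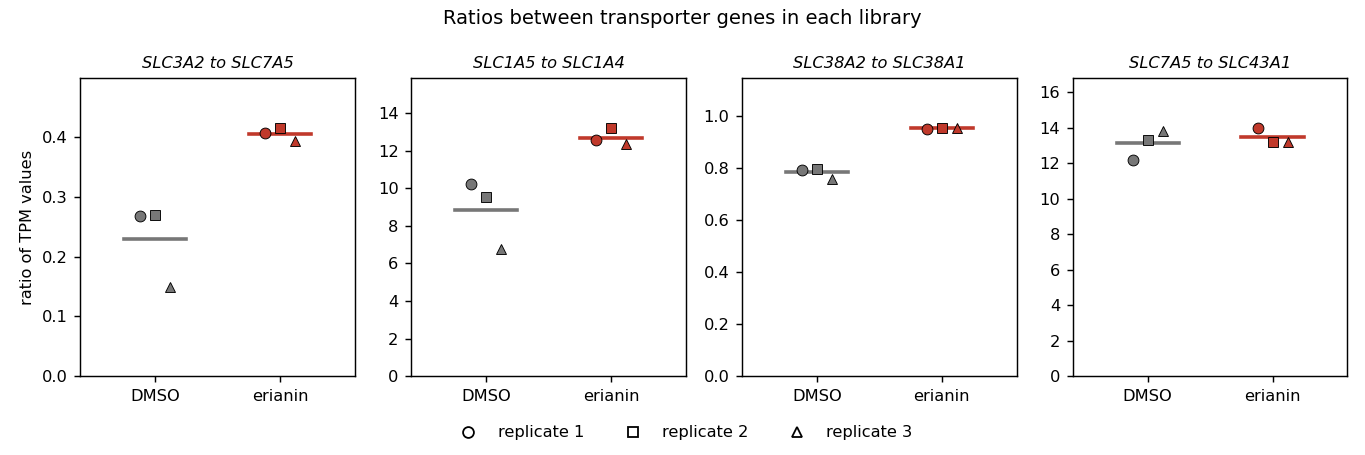
Ratios of TPM values between pairs of transporter genes in each library, with symbols for replicates and lines for group means; each vertical axis starts at 0. The ratios SLC3A2 to SLC7A5, SLC1A5 to SLC1A4 and SLC38A2 to SLC38A1 are higher in every erianin library, and the ratio SLC7A5 to SLC43A1 overlaps.

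SLC43A1 (ENSG00000149150, chr11:57484534-57515786, minus strand) is a facilitative carrier of branched-chain amino acids and phenylalanine that works without SLC3A2. It measured 45.3, 45.4 and 40.9 CPM with DMSO and 32.3, 34.2 and 35.1 CPM with erianin. The groups did not overlap. Its log2 fold change was -0.37 (SE 0.0874, adjusted p 0.0294, edgeR), close to that of SLC7A5, with which it shares leucine as a substrate. With 1 library left out, it passed without DMSO replicate 3 (-0.43, adjusted p 1.17e-06) and not without any other library (0.0923 to 0.133). These fits gave log2 fold changes between -0.43 and -0.35 for SLC43A1. Its TPM ratio to SLC7A5 overlapped between groups (SLC7A5 to SLC43A1 was 12.2, 13.3 and 13.8 with DMSO and 14.0, 13.2 and 13.2 with erianin, exact permutation p = 0.6).

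SLC7A1 (ENSG00000139514, chr13:29509410-29595688, minus strand) carries arginine, lysine and ornithine. It measured 215, 221 and 261 CPM with DMSO and 172, 187 and 174 CPM with erianin. All erianin libraries were below all DMSO libraries, and DMSO replicate 3 was the highest. In edgeR it had a log2 fold change of -0.39 (SE 0.0919, adjusted p 0.0308, edgeR), and -0.30 without that replicate (adjusted p 6.43e-07). It also passed without DMSO replicate 1 and not without DMSO replicate 2 (adjusted p 0.0624) or any erianin library (0.0972 to 0.143). These fits gave log2 fold changes between -0.44 and -0.30 for SLC7A1.

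SLC1A4 (ENSG00000115902, chr2:64988477-65023865, plus strand) and SLC1A5 (ENSG00000105281, chr19:46774883-46788594, minus strand) are sodium-dependent exchangers of small neutral amino acids; the former handles alanine, serine and cysteine, and the latter also glutamine. SLC1A4 measured 56.0, 62.0 and 60.0 CPM with DMSO and 35.7, 34.8 and 35.3 CPM with erianin. The groups were far apart and each varied little. The log2 fold change was -0.75 (SE 0.0798, 95% interval -0.94 to -0.57, adjusted p 0.00273, edgeR). SLC1A5 measured 429, 442 and 303 CPM with DMSO and 336, 345 and 326 CPM with erianin. The groups overlapped through DMSO replicate 3, which was below every erianin library. The log2 fold change was -0.22 (95% interval -0.55 to 0.10, adjusted p 0.325, edgeR), and without DMSO replicate 3 it was -0.38 (adjusted p 1.26e-09). The TPM ratio of SLC1A5 to SLC1A4 was 10.2, 9.52 and 6.75 with DMSO and 12.6, 13.2 and 12.3 with erianin, without overlap, and the exact permutation test gave p = 0.1. Its log2 difference was 0.55 with all 6 libraries. Leaving out each library in turn gave 0.37 to 0.66, the lowest without DMSO replicate 3.

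SLC38A1 (ENSG00000111371, chr12:46183063-46270017, minus strand) and SLC38A2 (ENSG00000134294, chr12:46358189-46372867, minus strand) are neighboring genes for sodium-coupled carriers of glutamine and alanine, the latter known to be induced when amino acids are short. SLC38A1 measured 217, 216 and 310 CPM with DMSO and 218, 231 and 231 CPM with erianin, and its log2 fold change was -0.13 (95% interval -0.46 to 0.20, adjusted p 0.593, edgeR). SLC38A2 measured 139, 138 and 189 CPM with DMSO and 167, 177 and 177 CPM with erianin, and its log2 fold change was 0.16 (95% interval -0.14 to 0.46, adjusted p 0.445, edgeR). Both overlapped between groups, and DMSO replicate 3 was above all erianin libraries in each. Without that replicate SLC38A2 was higher with erianin (0.32, adjusted p 2.03e-07) and SLC38A1 was at 0.06 (adjusted p 0.228). With a GC correction and all 6 libraries, SLC38A2 was at -0.01 (adjusted p 0.894, edgeR) and SLC38A1 at -0.26 (adjusted p 0.0506). With that correction and without DMSO replicate 3, SLC38A2 was at 0.0017 (adjusted p 0.981). SLC38A1 then passed as lower (-0.19, adjusted p 0.000264). SLC38A2 transcripts have a GC content of 38.1%, the lowest of the 10 genes. The TPM ratio of SLC38A2 to SLC38A1 was 0.794, 0.796 and 0.760 with DMSO and 0.952, 0.954 and 0.954 with erianin. The DMSO and erianin values did not overlap and DMSO replicate 3 lay close to the other DMSO libraries here. The ratio was 1.22-fold higher with erianin (exact permutation p = 0.1), and leaving out each library gave log2 differences between 0.26 and 0.30.

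SLC6A9 (ENSG00000196517, chr1:43991500-44031467, minus strand) takes up glycine together with sodium and chloride. It measured 11.7, 10.4 and 12.4 CPM with DMSO and 6.06, 6.73 and 6.71 CPM with erianin. All erianin libraries lay below all DMSO libraries. The log2 fold change was -0.82 (SE 0.120, 95% interval -1.10 to -0.54, adjusted p 0.00685, edgeR), the largest in size of the 10. SLC6A9 had 207 to 386 reads per library, and CCDC24, which overlaps it on the opposite strand, had a mean of 242 reads and a log2 fold change of 0.14 (adjusted p 0.536). Without 1 erianin library, SLC6A9 had adjusted p values of 0.0525, 0.0491 and 0.0507. With each library left out, its log2 fold change lay between -0.89 and -0.77. The 5 genes of at least 10 CPM whose log2 CPM followed SLC6A9 most closely over the 6 libraries were PCMTD2 (Pearson r 0.995), SMG9 (0.995), DFFA (0.993), INTS9 (0.993) and FADS1 (0.993), among 8543 genes compared; with 6 libraries in 2 groups this describes the shared split between groups.

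**Figure D3:**
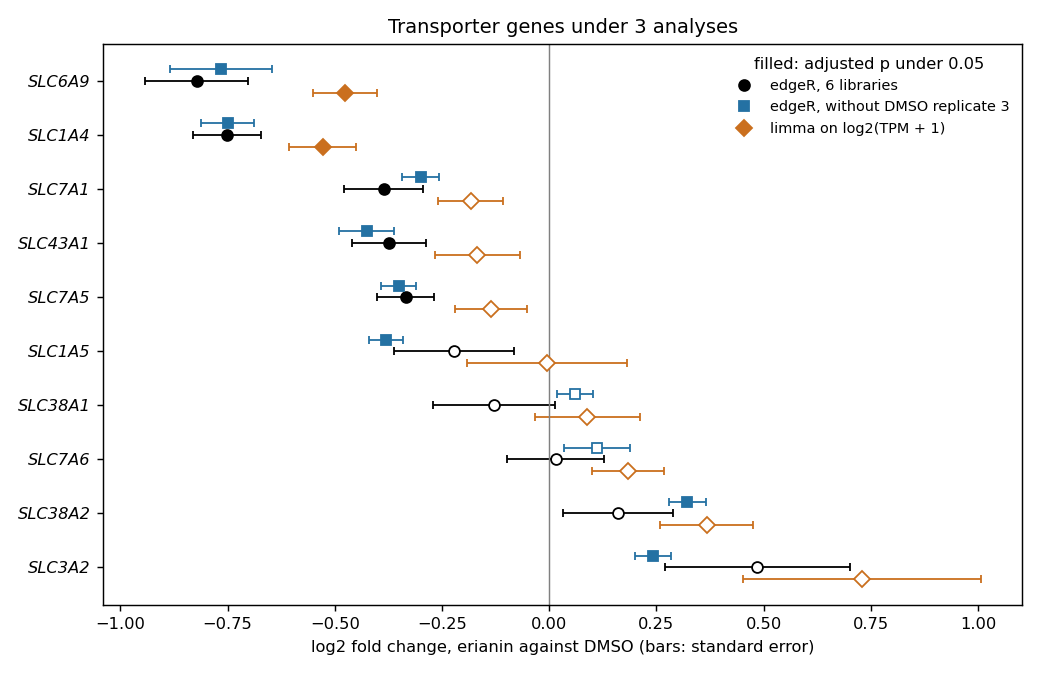
Log2 fold change of each transporter gene (erianin against DMSO, horizontal axis) with standard errors, in edgeR with all 6 libraries, in edgeR without DMSO replicate 3 and in limma on log2(TPM + 1); filled symbols have an adjusted p under 0.05. SLC6A9 and SLC1A4 are filled in all 3, and SLC7A1, SLC43A1 and SLC7A5 only in the edgeR analyses. The TPM columns were not rescaled to a common total.

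DMSO replicate 3 differed from the other DMSO libraries in opposite directions among these genes. It was the lowest DMSO library for SLC3A2, SLC1A5 and SLC43A1, whose transcripts have 57.4%, 61.3% and 58.2% GC, and the highest for SLC38A1, SLC38A2, SLC7A6, SLC7A1 and SLC6A9, with 41.3%, 38.1%, 47.0%, 52.7% and 59.6% GC. The part of GC content in the levels of this library was not tested. Without it, 6 of the 10 genes passed as lower, SLC1A5 being the addition, and SLC3A2 and SLC38A2 passed as higher, which is to be read beside the 27.7% and 27.5% of all genes that passed then. With a GC correction as well, SLC38A2 did not pass (0.0017, adjusted p 0.981, edgeR). SLC38A1 passed as lower there (-0.19, adjusted p 0.000264).

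On the TPM scale, limma on log2(TPM + 1) moved the median log2 fold change of all genes to 0.18, and 2.19% of genes passed as lower against 17.1% as higher. The TPM columns summed to 73.5%, 72.6% and 59.1% of the nominal total in DMSO replicates 1, 2 and 3. With erianin they summed to 77.2%, 75.1% and 78.3%, and they were not rescaled before limma. The part of these sums in the shift of all genes, and of the transporter genes, was not tested. SLC1A4 (-0.53, adjusted p 0.0112) and SLC6A9 (-0.48, adjusted p 0.0130) passed as lower on that scale, and SLC7A5 (-0.14), SLC7A1 (-0.18) and SLC43A1 (-0.17) did not.

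The companion lists from here on were also chosen with earlier results of these data known, so the shares of all genes beside them are descriptive. Among the 28 other plasma membrane amino acid carriers with a place in the table, 11 were high enough to test, 2 rose and 0 fell, with a median log2 fold change of 0.16. Over all genes tested with 6 libraries, 7.22% rose and 7.69% fell. The number of higher DEGs dropped from 2 to 1 without DMSO replicate 1 or any 1 erianin library, and without DMSO replicate 3, 3 of the 11 genes passed as higher and 2 as lower, where 27.5% and 27.7% of all genes did. SLC43A2, a relative of SLC43A1 that also carries branched-chain amino acids, measured 6.73, 8.69 and 5.27 CPM with DMSO and 21.0, 21.3 and 22.7 CPM with erianin. Its groups were widely separated, in the opposite direction to SLC43A1, and the log2 fold change was 1.65 (adjusted p 0.00290, edgeR). SLC1A3, a glutamate and aspartate carrier, rose by 0.70 on the log2 scale (adjusted p 0.0153, edgeR). The most abundant, the taurine carrier SLC6A6 and the neutral amino acid carrier SLC6A15, were at 0.06 and -0.20 and did not pass. SLC7A11, the cystine exchanger that also pairs with SLC3A2 and that was named after its values were seen, was at 0.19 (95% interval -0.22 to 0.60, adjusted p 0.509, edgeR). Without DMSO replicate 3, SLC7A11 passed as higher (0.38, adjusted p 0.00499, edgeR), as 27.5% of all genes did.

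In organelles, 8 lysosomal carriers were tested, 0 rose and 1 fell, the cystine exporter CTNS (-0.41, adjusted p 0.0403, edgeR). Of 11 mitochondrial carriers tested, the glutamate carrier SLC25A22 rose (0.39, adjusted p 0.0378, edgeR) and SFXN2, a member of the sideroflexin family, fell from 13.0 to 6.82 CPM (-0.93, adjusted p 0.00553). Over all genes, 7.22% rose and 7.69% fell. The lysosomal and mitochondrial lists had medians of -0.12 and 0.01. Their most abundant other members, MFSD12 (-0.15) and SLC15A4 (0.09) of lysosomes and SFXN3 (-0.36) and SFXN1 (0.07) of mitochondria, did not pass. Without DMSO replicate 3, 0 lysosomal carriers passed as higher and 3 as lower, and 2 and 5 mitochondrial ones, beside 27.5% and 27.7% of all genes.

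Of 11 tested genes that act in trafficking and turnover of carriers, 4 rose and 0 fell, with a median log2 fold change of 0.15; 7.22% of all genes rose and 7.69% fell. All 4 were DEGs, and the number of DEGs dropped to 1 when any 1 erianin library was left out. DEGs over all genes then dropped from 1119 to 328, 312 and 309, without erianin replicates 1, 2 and 3. Without DMSO replicate 3, 7 of these genes passed as higher and 3 as lower, with a median of 0.43, beside 27.5% and 27.7% of all genes. The arrestin-domain adaptor ARRDC3, which helps ubiquitin ligases reach membrane proteins, measured 17.9, 18.2 and 26.2 CPM with DMSO and 76.0, 77.9 and 80.3 CPM with erianin. No library of either group came near the other group, and the log2 fold change was 1.91 (adjusted p 0.00105, edgeR). ARRDC4, its relative, rose by 0.80, the kinase SGK1 by 0.71 and the ubiquitin ligase NEDD4L by 0.62. BSG, LAPTM4B and ITCH, the most abundant of the list, had log2 fold changes of -0.08, 0.12 and 0.15 and did not pass.

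The 23 tested genes of ATF4 and its amino acid response were split: 4 rose and 6 fell, and the median log2 fold change was -0.25. Over all genes, 7.22% rose and 7.69% fell. ATF4 itself measured 788, 785 and 874 CPM with DMSO and 651, 628 and 658 CPM with erianin. Every erianin library was below every DMSO library (log2 fold change -0.34, adjusted p 0.0233, edgeR). The transcription factors ATF3 (1.82, adjusted p 0.00105, edgeR) and DDIT3 (1.26, adjusted p 0.00410) rose. The secreted factor GDF15 also passed as higher (1.03, adjusted p 0.0417), but at a very low level, with means of 0.685 CPM with DMSO and 1.40 CPM with erianin. SHMT2 (-0.65, adjusted p 0.00463) and PSAT1 (-0.53, adjusted p 0.0422) of serine and glycine metabolism fell. The glutathione-degrading enzyme CHAC1 (-0.60, adjusted p 0.0203) fell too. PHGDH, the first enzyme of serine synthesis, was at -0.47 and did not pass (adjusted p 0.112). DEGs of this list numbered 3 higher and 3 lower, and 2 and 1 when any library other than DMSO replicate 3 was left out. Without DMSO replicate 3, 4 of these genes rose and 15 fell, beside 27.5% and 27.7% of all genes.

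Of the 29 tested genes of amino acid sensing by GCN2 and mTORC1, 0 rose and 5 fell, with a median of 0.01. Over all genes, 7.22% rose and 7.69% fell. RRAGB, a Rag GTPase that recruits mTORC1 to lysosomes, was the only DEG of the list (-0.51, adjusted p 0.0269, edgeR), and with 1 library left out the list had a lower DEG only without DMSO replicate 2. The abundant GCN1, SEC13 and LAMTOR1 did not pass. The count of 0 higher depended on the processing. The list had 1 higher DEG in DESeq2, with RLE or upper-quartile factors, and with either of the other low-count filters. It had 0 with the replicate block alone or the GC offset alone. Without DMSO replicate 3, 8 of these genes passed as higher and 12 as lower, beside 27.5% and 27.7% of all genes.

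Aminoacyl-tRNA synthetases load amino acids onto tRNA. Of the 20 cytosolic ones, 18 were listed at 0 in every library, although every cell uses them, so no level is given for them; of the other 2, FARSA fell (-0.30, adjusted p 0.0227, edgeR) and FARSB was at -0.05. Of 17 mitochondrial ones, 0 rose and 2 fell, where 7.22% of all genes rose and 7.69% fell. PARS2 was the only DEG among the 17 (-0.59, adjusted p 0.0194). No gene of this list was a DEG with the replicate block, without DMSO replicate 2 or without any 1 erianin library, and without DMSO replicate 3, 0 passed as higher and 9 as lower, beside 27.5% and 27.7% of all genes. The abundant IARS2 (0.08), CARS2 (-0.31) and TARS2 (-0.24) did not pass. In the glutathione list, 1 of 12 tested genes rose, GCLM (0.52, adjusted p 0.0328), and 2 fell, CBS (-0.71, adjusted p 0.0153) and CHAC1, where 7.22% and 7.69% of all genes did. The abundant GSS (-0.18) and GSR (-0.07) did not pass. With any library other than DMSO replicate 3 left out, 0 lower DEGs were left in the glutathione list, and a higher DEG was left only without DMSO replicate 2; without DMSO replicate 3, 5 of its genes passed as higher and 3 as lower, beside 27.5% and 27.7% of all genes.

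Among 14 carriers of glucose, lactate and nucleosides, 2 rose and 2 fell, where 7.22% of all genes rose and 7.69% fell. The glucose carrier SLC2A3 measured 28.9, 27.2 and 27.0 CPM with DMSO and 65.6, 85.1 and 72.4 CPM with erianin, well apart (log2 fold change 1.42, adjusted p 0.00102, edgeR), and SLC2A1 rose by 0.58 (adjusted p 0.00734). The related SLC2A10 fell by 0.52 on the log2 scale (adjusted p 0.0213), and 0 genes of the list were lower DEGs when any library other than DMSO replicate 3 was left out. The abundant SLC16A1 (0.27) and SLC29A1 (-0.18) did not pass. Higher DEGs dropped from 2 to 1 without any 1 erianin library, and without DMSO replicate 3, 4 of the 14 passed as higher and 6 as lower, beside 27.5% and 27.7% of all genes. At an unadjusted p under 0.05 in edgeR, the lists given above with 0 in a direction had 2 lower other membrane carriers (0 by adjusted p in DESeq2), 0 higher lysosomal carriers (0), 5 higher sensing genes (3), 0 higher synthetases of either kind (0) and 0 lower trafficking genes (0). The genes SLC6A14, SLC5A3 and TXNIP of these lists were not analysed here.

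**Figure D4:**
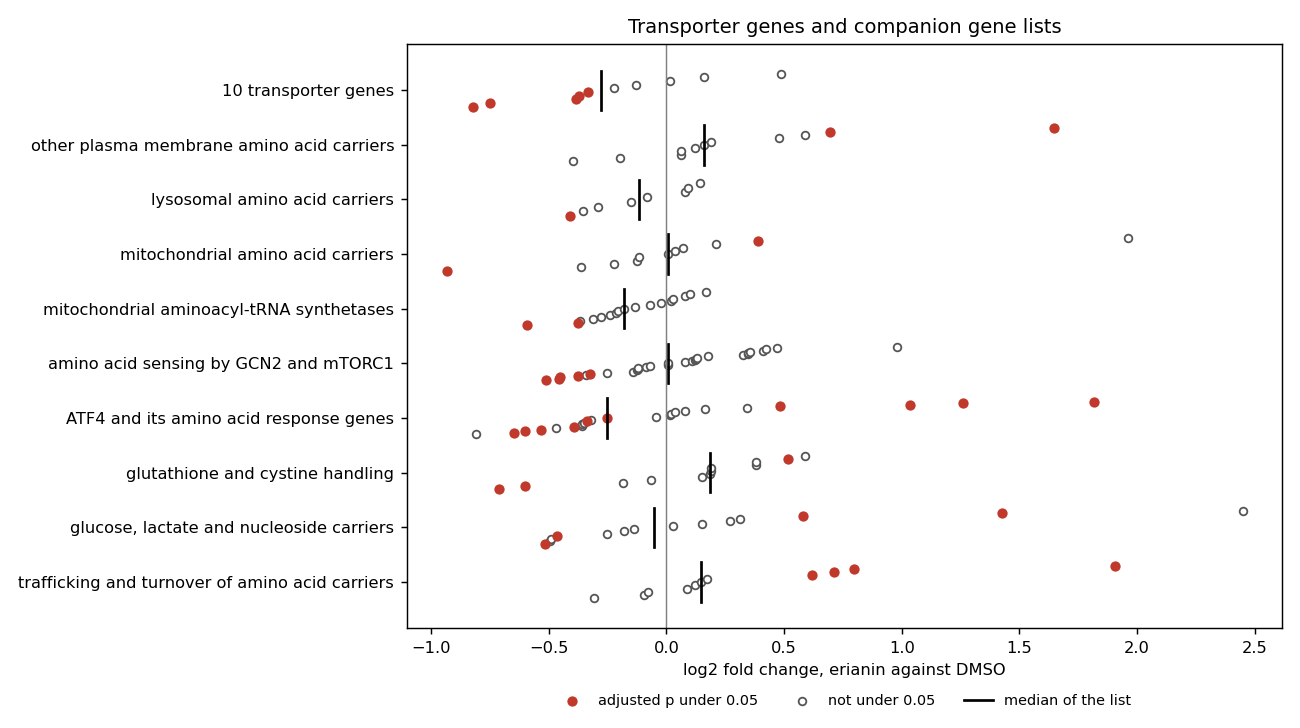
Log2 fold change (erianin against DMSO) of each tested gene in the transporter set and in 9 companion lists, with filled points for an adjusted p under 0.05 and vertical bars for the median of each list. The 10 transporter genes have a median of -0.28, the other plasma membrane carriers 0.16 and the trafficking genes 0.15.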

How the data were processed

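RNA was measured in 3 DMSO and 3 erianin libraries of CAL62 cells. The values deposited by the authors are whole read counts for each gene, without normalization, and TPM values, which the authors scaled by gene length and library total. The submitters' processing notes name fastp 0.23.2, STAR 2.7.10, featureCounts 2.0.1 and StringTie 2.2.1 and GRCh38; the annotation and the strand setting are not given in the sources used here. The TPM columns summed to 59.1% of the nominal TPM total in DMSO replicate 3 and to 72.6% to 78.3% in the others. Of 65807 table entries, 26480 carried no identifier (at most 0.00515% of counts) and were left out; 159 identifiers stood on several, of which the one with most counts was used. Symbols and positions came from the reference tables and GENCODE on GRCh38; promoter sequences came from RefSeq (GRCh38.p14).

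Counts were tested with edgeR 4.0.16 (TMM, filterByExpr, glmQLFit, glmQLFTest; R 4.3.3) over 12821 genes without covariates, with Benjamini-Hochberg adjusted p under 0.05; DEGs also had an absolute log2 fold change over 0.5. These 6 libraries came from replicate experiments per the series text, and p-values measure the spread between them. Alternatives were DESeq2 1.42.0, RLE and upper-quartile factors, other filters, limma 3.58.1 on log2(TPM + 1) or log2(TPM + 0.1) (keeping genes whose TPM averaged at least 1, or every gene), a replicate block, a loess GC offset (span 0.5), each library left out, and other fold thresholds. The GC offset without DMSO replicate 3 and the CACGTG motif were added after the data had been seen. TPM ratios were compared by two-sided exact permutation tests. On simulated counts with 200 changed genes, edgeR recovered 191, with 4 unchanged genes called among 12795.

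The transporter genes and the companion lists (183 genes in 10 lists) were chosen with earlier results of these data known. All 10 transporter genes are named; of each list the 3 most abundant and up to 4 DEGs per direction with the largest change are named. Also named are the 5 genes most like SLC6A9, genes that overlap a transporter gene, the SLC7A5 pseudogenes, cell type markers, SLC7A11 and genes that were not analysed. Some genes of the marker lists and overlaps are not reported here.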

Additional observations from a re-analysis of the deposited data

How the results depend on the processing

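SLC1A4 was lower and passed in 18 of 18 alternative analyses (log2 fold change -0.87 to -0.53), SLC6A9 in 16, SLC7A5 in 10, and SLC7A1 and SLC43A1 in 9; these 5 and SLC1A5 were negative in all 18, and SLC3A2 was positive in all 18 and passed in 3. The edgeR test against a log2 fold change of 0.5 is not among the 18. In it SLC1A4 (adjusted p 0.0879) and SLC6A9 (adjusted p 0.136) did not pass. Over all genes 688 DEGs were higher and 431 lower, and 12 and 8 of the companion genes. Limma gave 1096 higher and 93 lower on log2(TPM + 1), 1087 and 92 without a filter, and 1220 and 110 on log2(TPM + 0.1); transporter genes lower at adjusted p numbered 2 in each, lower DEGs among them 1 in the first and second, companion DEGs lower 1 in each, and companion DEGs higher 21 in the last. Upper-quartile factors gave 5 lower companion DEGs. Libraries sharing a replicate number did not deviate together over all genes (correlations 0.00138, 0.0253 and -0.0329). The deviations were taken from group means that include DMSO replicate 3, so these values cannot exclude a smaller shared effect. The replicate block gave 384 higher and 281 lower DEGs, 3 lower companion DEGs and 2 lower transporter genes. The GC offset gave 709 lower DEGs; with the replicate block, 1 transporter gene was a higher DEG and 1 passed as higher (SLC3A2); without DMSO replicate 3 it gave 871 lower DEGs, 14 lower companion DEGs and 1 higher transporter gene. With no fold threshold 986 genes, 5 transporter genes and 19 companion genes were lower. A threshold of 1 gave 324 and 28 DEGs, 0 lower transporter DEGs, and 6 and 0 companion DEGs; a test against 0.5 gave 124 and 24, 0, and 5 and 0.

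With each library left out, DEGs ranged from 172 to 1485 higher and 126 to 797 lower, companion DEGs from 5 to 19 and 2 to 11, lower transporter DEGs from 1 to 2, and transporter genes at adjusted p from 1 to 6 lower and 0 to 2 higher; the highest counts of DEGs came without DMSO replicate 3. Signs changed for genes near 0. SLC7A6 was at -0.0026 with no low-count filter, -0.060 with the GC offset and -0.057 with that and the block, and ranged from -0.048 to 0.11 with each library left out (negative without DMSO replicate 1, DMSO replicate 2 or erianin replicate 3). SLC38A1 was at 0.089 on log2(TPM + 1) with and without the filter and 0.091 on log2(TPM + 0.1), and ranged from -0.22 to 0.061 with each library left out (positive without DMSO replicate 3). SLC38A2 was at -0.014 with the GC offset and -0.013 with that and the block. The log2 TPM ratio of SLC7A5 to SLC43A1 ranged from -0.012 without DMSO replicate 1 to 0.078 without DMSO replicate 3. The cause of these changes was not tested.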
